A study of Mus musculus with 18 samples.

Results

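The comparison followed interneurons that lack Htr3a from shortly before birth, at E18.5 (E, embryonic day), to postnatal day 2 (P2). It set the 3 arrays of P2 Htr3a-KO cells against the 3 arrays of E18.5 Htr3a-KO cells, 6 of the 18 arrays of the series. All probe sets that name a single gene were its members, 34945 of the 45101 on the array, and after a filter on dim probe sets 14288 genes were tested, each through 1 probe set. Both Htr3a-KO groups had the genotype Htr3a-KO;GAD65-GFP. The control groups set beside them, with 3 arrays at each age, had the genotype GAD65-GFP, so every group carried the GAD65-GFP transgene, in which regulatory sequence of the GABA synthesis gene Gad2 drives green fluorescent protein. Per the labels and the design text, the cells were cortical interneurons that derive from the caudal ganglionic eminence (CGE), sorted by their fluorescence from dissociated tissue. For every array, at least 4 brains were pooled, and the 3 arrays of a group came from 3 different litters. A pool hides the spread between animals, and the sort takes any cell that is fluorescent enough, whatever its origin. The series also holds both genotypes at E14.5.

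CGE interneurons are born in the ventral forebrain, migrate tangentially into the cortex, turn into the cortical plate around birth and then settle, mostly in superficial layers, where they become cells that express Vip, Reln or Cck. Htr3a encodes a subunit of the serotonin-gated cation channel 5-HT3, a marker of this class. In the days around birth the cortex also ends most of its neurogenesis, starts to make astrocytes and oligodendrocyte precursors, and meets a change in hormones and in its blood supply. The step from E18.5 to P2 therefore asks, per the design text, how cells that are entering the cortical plate differ from cells that are settling, here in the absence of Htr3a.

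Levels are log2 intensities after robust multi-array averaging (RMA), so a difference of 1 is 2-fold, and levels of different genes are not compared with each other. A gene passed at a Benjamini-Hochberg adjusted p under 0.05 in limma, and differences are P2 minus E18.5 with n = 3 arrays per age. The probe set of Htr3a read 6.61, 6.79 and 7.09 at E18.5 against 6.81, 7.01 and 6.71 at P2 in the Htr3a-KO arrays, below each of the 6 control arrays of these ages, whose E18.5 values were 9.64, 10.79 and 10.58 and whose P2 values were 8.61, 8.64 and 9.11. Where this probe set lies against the deleted sequence was not given in the sources used here. Its level in Htr3a-KO cells did not pass between the ages (difference 0.01, SE 0.26, adjusted p = 0.975). Array 1 of the P2 Htr3a-KO group stood apart from the other arrays of its group: its correlations with them over genes were 0.974 and 0.981, while those of the other pair came to 0.992 and those within the E18.5 group to 0.987 to 0.9945. Calls named below that ended without it are marked. For gene lists whose median moved by over 1.5 times when 1 of the 6 arrays was left out, brackets give the lowest and the highest such median, with the array left out. The Gapdh 3′ to 5′ difference, a sign of RNA integrity, was 1.79, 1.94 and 2.12 at E18.5 against 1.89, 2.03 and 1.87 at P2 (exact permutation test, two-sided, p = 0.9, where the smallest p possible is 0.1), and that of actin was 0.89, 0.96 and 1.18 against 0.75, 0.89 and 0.92 (exact permutation test, two-sided, p = 0.3).

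From E18.5 to P2, 4071 of the 14288 genes passed in Htr3a-KO cells, 28.5% of those tested, with 1929 higher at P2 (13.5%) and 2142 lower (15.0%). All list counts below stand beside these shares, and a list near them is not read as a result about its members. Large rises outnumbered large falls: 533 genes rose more than 2-fold and 95 more than 4-fold, against 178 and 10 that fell by as much. The 3 arrays of each age did not overlap for 6780 genes, 47.5% of all, and 3993 of the called genes were among them. Lack of overlap in a gene that did not pass is therefore common and is not read as a result below. A change of at least 1.5-fold was seen in 2137 of the called genes (1117 higher and 1020 lower). The count fell to 2518 without P2 array 1 and to 2695 without E18.5 array 1. The direction of a change moved with level. With genes split by level into 3 bins of about equal size, 826 of the dimmest bin rose and 233 of it fell, with a median difference of 0.15, while in the brightest bin 447 rose and 1041 fell, with a median of −0.14 (in control cells the medians of these bins were 0.00 and −0.09). The spread of levels over genes was narrower at P2 (SD 1.87, 1.89 and 1.91) than at E18.5 (2.00, 1.97 and 1.97). After quantile normalization, which gives every array the same spread, 1590 genes were higher and 1987 lower, beside 1929 and 2142. The part of the narrowing in small rises of single dim genes was not tested.

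**Figure D1:**
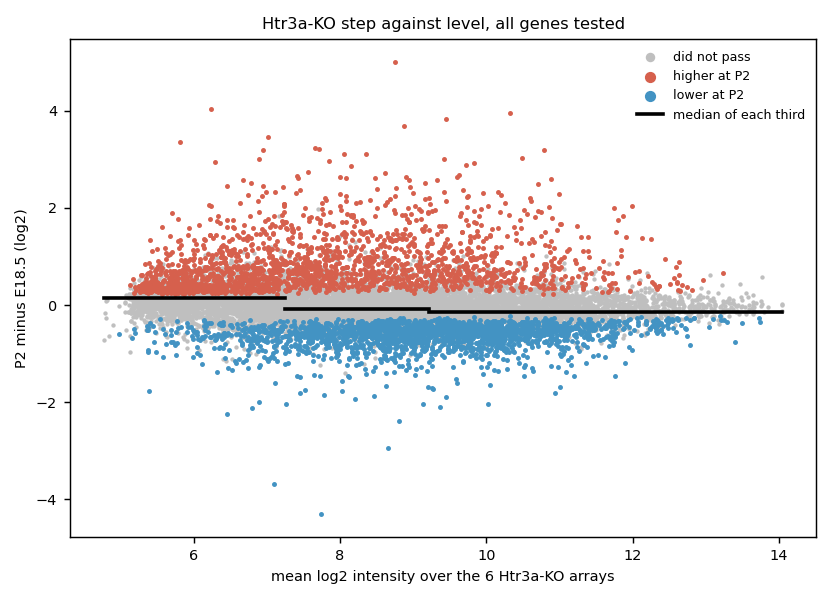
Difference between P2 and E18.5 in Htr3a-KO cells (vertical axis, log2) against the mean log2 intensity over the 6 Htr3a-KO arrays (horizontal axis), 1 point per gene tested. Coloured points passed at an adjusted p under 0.05, and black bars give the median difference in each of 3 bins of level, 0.15, −0.09 and −0.14 from dim to bright.

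The 10 largest rises with no overlap between the ages were led by Aqp4, the water channel of astrocyte endfeet, which read 6.28, 6.38 and 6.07 at E18.5 against 11.62, 10.83 and 11.29 at P2. All P2 arrays lay far above all E18.5 arrays, a rise of 32.1-fold (difference 5.0, SE 0.46, adjusted p = 7.20e-06). Next came Abhd3, a phospholipid hydrolase gene, with 4.29, 4.17 and 4.20 at E18.5 against 8.99, 8.16 and 7.59 at P2 (adjusted p = 2.02e-05), and Apoe, the main lipid carrier of the brain, with 8.16, 8.47 and 8.41 at E18.5 against 12.72, 12.03 and 12.18 at P2, a 15.6-fold rise (adjusted p = 3.49e-05). Pla2g7, which encodes an enzyme that inactivates platelet-activating factor, rose (difference 3.82), Gpr37l1, a G-protein-coupled receptor gene of glia, rose 12.9-fold, and Gja1, the gap junction protein connexin 43, rose 9.13-fold. The urea transporter gene Slc14a1 rose 10.2-fold, the mitochondrial glutamate carrier gene Slc25a18 9.40-fold and the transmembrane protein gene Tmem100 9.32-fold. Most of these are genes known from astrocytes. At E18.5 the mean levels of Abhd3 and Slc14a1 lay below the dimness filter, at 4.22 and 4.13, so their folds depend on the floor of the array. Also among the 10 was Crh, a neuropeptide gene of cortical interneurons, described below.

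The 10 largest falls were led by genes of the excitatory lineage. Eomes, the T-box factor of intermediate progenitors of excitatory neurons, read 10.08, 9.04 and 10.53 at E18.5 against 5.04, 5.80 and 5.91 at P2, so that no arrays of the 2 ages overlapped and the level fell 19.7-fold (difference −4.30, SE 0.41, adjusted p = 1.05e-05). Neurog2, the proneural factor that starts excitatory neurogenesis in the cortex, read 9.03, 8.27 and 9.53 at E18.5 against 4.94, 5.18 and 5.64 at P2, a 12.9-fold fall (adjusted p = 3.44e-06). At P2 the mean level of Neurog2 lay just below the dimness filter and that of Tfap2c, given below, near it, at 5.34. Their folds therefore depend on the floor of the array. Insm1, a zinc finger factor of newborn neurons and their progenitors, fell 7.66-fold and Neurod1, a differentiation factor downstream of the proneural genes, 5.21-fold. Tfap2c, a transcription factor of basal progenitors, read 7.80, 6.48 and 8.45 at E18.5 against 5.46, 5.09 and 5.47 at P2 and fell 4.71-fold (adjusted p = 0.00674), a call that ended when the gene's probe sets were averaged. Shisa2, a modulator of Wnt and FGF signalling, fell 4.34-fold and Glt28d2 4.09-fold. The rest were Cntn2, an axonal adhesion molecule, Epha3, an ephrin receptor, and Tbr1, a transcription factor of early-born excitatory neurons. Of these, Cntn2 had 1 of its other 3 probe sets in the opposite direction.

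**Figure D2:**
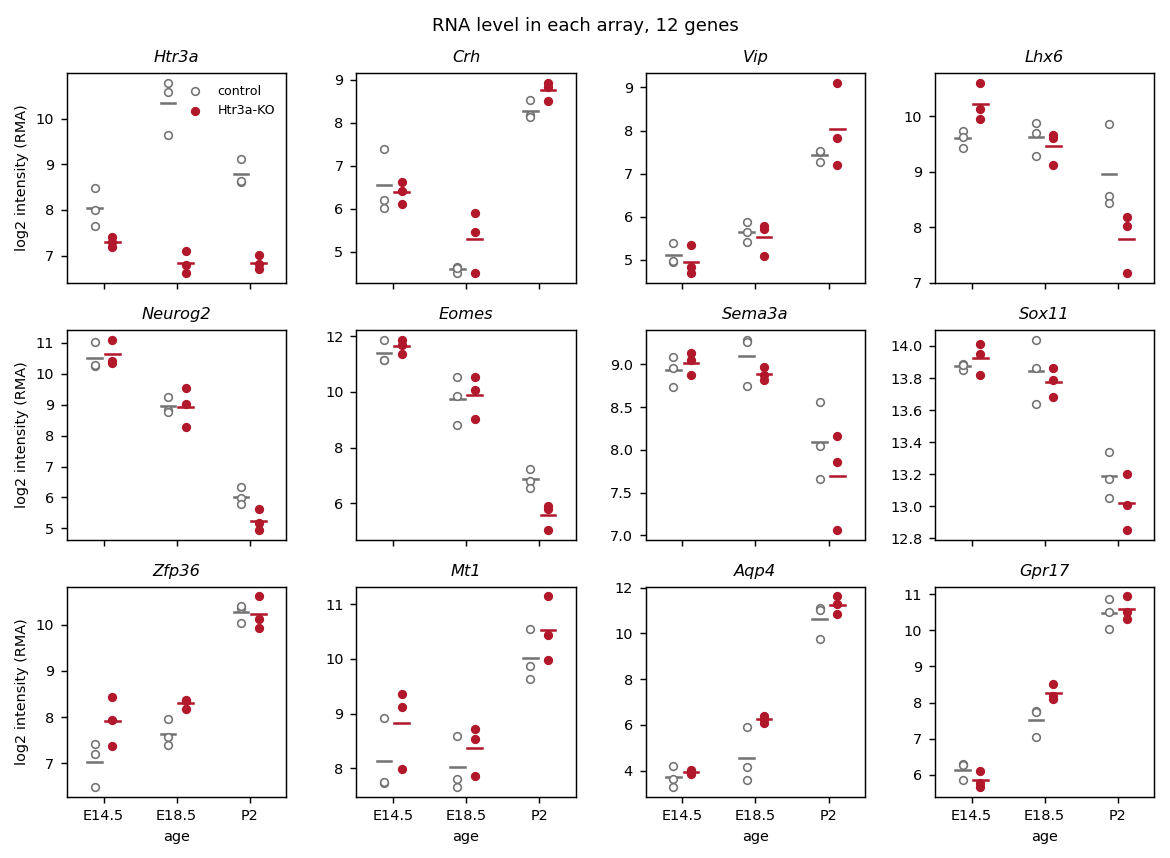
RNA level of 12 genes in each array (vertical axes, log2 intensity, each with its own range) at E14.5, E18.5 and P2. Filled red points are Htr3a-KO arrays, open grey points are control arrays, and bars are means of 3 arrays. Aqp4, Gpr17, Crh, Vip, Zfp36 and Mt1 rose between E18.5 and P2 in Htr3a-KO cells, Eomes, Neurog2, Lhx6, Sema3a and Sox11 fell, and Htr3a stayed near 6.8.

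GABAergic identity was the first point checked. Gad1, which makes most of the GABA of the cell body, read 10.93, 11.33 and 11.18 at E18.5 against 11.79, 11.19 and 11.68 at P2, and Gad2, the gene of the transgene's promoter, read 9.32, 9.36 and 9.40 at E18.5 against 9.08, 8.44 and 9.24 at P2. Neither passed (differences 0.41 and −0.44, adjusted p = 0.321 and 0.471), although Gad2 was lower in every P2 array than in any E18.5 array. The vesicular GABA transporter gene Slc32a1 read 8.10, 8.61 and 8.98 at E18.5 against 9.08, 8.13 and 8.28 at P2, with overlapping groups (adjusted p = 0.892). Of 10 tested genes of the GABAergic list (12 listed), 1 rose and 0 fell, with a median difference of −0.05 (−0.20 without P2 array 1 to 0.03 without P2 array 2) beside 0.00 over all genes tested. The gene that rose was Abat, the GABA-degrading transaminase, which read 8.64, 8.68 and 8.40 at E18.5 against 10.01, 9.56 and 9.81 at P2, a 2.33-fold rise with no overlap (adjusted p = 0.00381). Dlx2 and Dlx5, homeobox genes of the ganglionic eminences, gave differences of −0.80 and −0.63 that did not pass (adjusted p = 0.0948 and 0.199). The chloride exporter gene Slc12a5, which makes GABA inhibitory as neurons mature, read 9.36, 9.53 and 9.02 at E18.5 against 9.63, 10.44 and 9.93 at P2, higher in every P2 array but short of the threshold (adjusted p = 0.0742). Its embryonic counterpart Slc12a2, a chloride importer, gave a difference of −0.03.

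Transcription factors that set CGE identity mostly did not pass. Of 11 tested (12 listed), 1 rose and 0 fell, with a median difference of 0.17 (−0.01 without E18.5 array 1 to 0.31 without E18.5 array 3, and 0.07 without P2 array 1). Nr2f1 (COUP-TFI) read 12.09, 12.03 and 12.10 at E18.5 against 11.87, 11.92 and 12.17 at P2, Nr2f2 (COUP-TFII) read 8.78, 9.46 and 9.51 at E18.5 against 9.34, 9.07 and 8.83 at P2, and the zinc finger factor gene Sp8 read 8.42, 8.36 and 8.97 at E18.5 against 8.21, 7.18 and 8.57 at P2, all with overlap between the ages. Prox1, a homeobox factor that CGE cells keep through migration and settling, had a difference of −0.62 (adjusted p = 0.248). The 1 that rose was Npas3, a bHLH-PAS factor, which read 9.75, 9.82 and 9.92 at E18.5 against 10.72, 10.19 and 10.72 at P2 (1.64-fold, adjusted p = 0.0247). That call ended without E18.5 array 1, E18.5 array 2, P2 array 1 or P2 array 3 or when its probe sets were averaged (adjusted p = 0.0584 to 0.0933).

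Markers of the mature CGE subclasses were partly higher at P2. Of 18 tested (21 listed), 6 rose and 0 fell, and without P2 array 1, E18.5 array 1 or E18.5 array 3 there were 4. The list's median difference was 0.06 (0.01 without P2 array 2 to 0.13 without P2 array 1), near that of all genes. Crh, the corticotropin-releasing hormone that some Vip cells make, read 4.50, 5.91 and 5.46 at E18.5 against 8.83, 8.50 and 8.93 at P2: every P2 array lay more than 2 units above every E18.5 array, an 11.0-fold rise (difference 3.46, SE 0.33, adjusted p = 1.05e-05). Its E18.5 mean of 5.29 lay near the dimness filter, so the fold depends on the floor of the array. Vip, the vasoactive intestinal peptide of cells that inhibit other interneurons, read 5.09, 5.77 and 5.71 at E18.5 against 9.11, 7.20 and 7.82 at P2, a 5.74-fold rise (adjusted p = 0.000161), highest in P2 array 1. Cxcl14, a chemokine gene of superficial CGE cells, read 6.73, 6.87 and 6.45 at E18.5 against 9.0, 8.17 and 8.27 at P2 (3.47-fold, adjusted p = 0.00111). Lamp5, a marker of neurogliaform cells, started near the dimness filter and read 5.41, 5.56 and 5.46 at E18.5 against 7.0, 6.41 and 6.44 at P2 (2.20-fold, adjusted p = 0.000843). These 4 were called in every alternative. The rise of Synpr, a synaptic vesicle protein gene (1.12), was not called without E18.5 array 1, E18.5 array 3, P2 array 1 or P2 array 3 (adjusted p = 0.0543 to 0.0787). The rise of the growth factor gene Igf1 (1.34) was not called without E18.5 array 1, E18.5 array 3 or P2 array 1 (adjusted p = 0.0579 to 0.1).

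Other markers of the class were already high before birth. Reln, the secreted guidance protein of neurogliaform and Cajal-Retzius cells, read 12.84, 12.96 and 12.23 at E18.5 against 12.42, 12.28 and 12.22 at P2. Npy, a neuropeptide gene, read 10.07, 10.95 and 9.98 at E18.5 against 9.23, 10.16 and 9.70 at P2, Calb2 (calretinin) read 9.69, 9.37 and 9.13 at E18.5 against 9.46, 8.74 and 8.98 at P2, and Cnr1, the cannabinoid receptor of Cck cells, read 12.08, 11.95 and 11.72 at E18.5 against 11.93, 11.74 and 11.98 at P2. None of these 4 passed (adjusted p = 0.334, 0.137, 0.571 and 0.926). Cck itself gave a difference of 0.69 (adjusted p = 0.0556), with every P2 array above every E18.5 array.

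Genes of interneurons from the medial ganglionic eminence (MGE), the neighbouring source of Sst and Pvalb cells, were measured as a check of the sort. Of 13 tested (16 listed), 0 rose and 3 fell, with a median of −0.28 (−0.41 without P2 array 2 to −0.04 without P2 array 1), and 2 fell without P2 array 1. Lhx6, the LIM homeobox factor that defines postmitotic MGE cells, read 9.66, 9.61 and 9.12 at E18.5 against 7.17, 8.18 and 8.03 at P2, a 3.18-fold fall (difference −1.67, SE 0.33, adjusted p = 0.00215), with the lowest level in P2 array 1. Nos1, the neuronal nitric oxide synthase gene, read 9.97, 9.88 and 10.03 at E18.5 against 8.66, 9.43 and 8.90 at P2 (1.95-fold lower, adjusted p = 0.00258), with 1 of its other 2 probe sets in the same direction. Cux2, a homeobox factor of migrating interneurons and upper-layer neurons, read 10.65, 10.66 and 10.54 at E18.5 against 9.0, 9.86 and 9.91 at P2, and its call ended without P2 array 1 (adjusted p = 0.0675). Nkx2-1, which specifies MGE progenitors, stayed between 5.69 and 5.97. Sst read 8.24, 9.0 and 8.52 at E18.5 against 8.01, 8.37 and 7.86 at P2 and did not pass (adjusted p = 0.143). In bulk RNA, fewer cells of a type and less RNA per cell cannot be told apart, here and in all results that follow.

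Excitatory lineage RNA was present in the sorted cells at E18.5 and was lower at P2. Of 14 tested genes of excitatory progenitors, 7 fell and 1 rose, with a median difference of −1.02. Besides Eomes, Neurog2, Insm1 and Neurod1, the genes that fell were Sstr2, a somatostatin receptor gene (3.82-fold, adjusted p = 3.17e-06), Nhlh2, a bHLH factor of newborn neurons (3.53-fold, adjusted p = 0.00898), and the Wnt agonist gene Rspo3 (2.51-fold, adjusted p = 0.00876). Pax6, the factor of radial glia, read 8.32, 7.72 and 8.6 at E18.5 against 8.36, 7.66 and 8.28 at P2 and did not pass (adjusted p = 0.772). The rise of Neurog1, from 5.08 to 5.48, lay near the dimness filter, and its call ended without E18.5 array 1 or P2 array 1 or when its probe sets were averaged or in a fit of only the arrays compared (adjusted p = 0.0501 to 0.631). Of 14 tested genes of excitatory neurons (16 listed), 6 fell and 0 rose, with a median of −0.52, and the same counts were found without P2 array 1. Slc17a6, the vesicular glutamate transporter VGLUT2, read 10.62, 10.33 and 10.22 at E18.5 against 7.73, 8.99 and 8.77 at P2, a 3.71-fold fall (adjusted p = 0.000199). Neurod6, a factor of excitatory neurons, read 12.26, 11.81 and 11.46 at E18.5 against 8.91, 10.79 and 10.37 at P2, and Tbr1 read 10.80, 10.06 and 9.59 at E18.5 against 6.77, 9.0 and 8.55 at P2 (3.53-fold and 4.12-fold lower, adjusted p = 0.00272 and 0.00284). P2 array 1 was the lowest array for all 3 genes. Nrn1 (neuritin), Neurod2 and Cux1 also fell, by 2.71-fold, 2.14-fold and 1.4-fold. Fezf2, Sox5, Rorb and Lmo3, factors of deep or middle layers, did not pass.

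The mean of the excitatory neuron list was 9.74, 9.53 and 9.34 at E18.5 against 8.41, 9.19 and 8.94 at P2, lowest in P2 array 1, which was highest for astrocyte genes. Genes of striatal projection neurons, which also come from the ventral forebrain and are GABAergic, were measured too. Of 13 tested (16 listed), 1 rose (Rgs9, 0.44) and 1 fell (Bcl11b, −0.64), with a median of −0.11 (−0.19 without P2 array 2 to 0.00 without P2 array 1). The call of Bcl11b ended without E18.5 array 1, E18.5 array 2, E18.5 array 3 or P2 array 1 or in a fit of only the arrays compared (adjusted p = 0.0569 to 0.116).

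**Figure D3:**
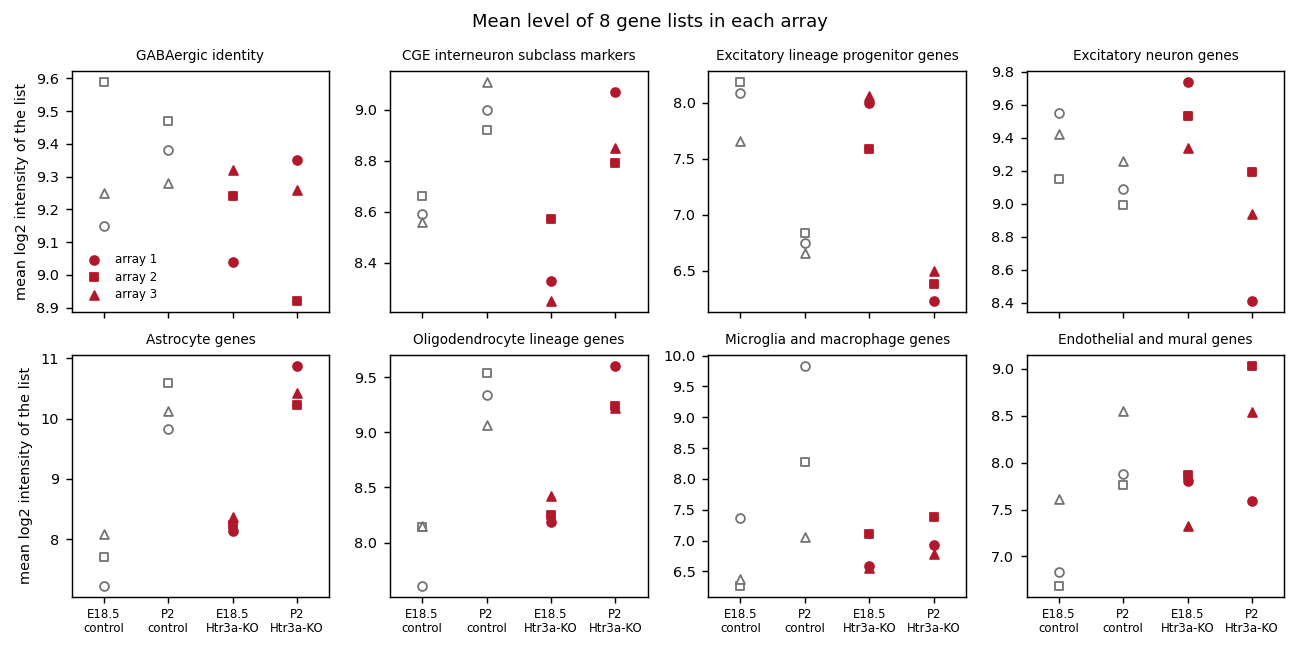
Mean log2 intensity of 8 gene lists in each array (vertical axes with their own ranges), for control (open) and Htr3a-KO (filled) cells at E18.5 and P2, with a marker shape for each array number. In Htr3a-KO cells the astrocyte list lay between 8.14 and 8.37 at E18.5 and between 10.22 and 10.87 at P2, the excitatory progenitor list was lower in every P2 array than in any E18.5 array, and the microglia list overlapped between ages.

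Guidance genes moved in both directions. Among semaphorins, plexins and neuropilins, the ligands and receptors through which migrating neurons are repelled or attracted, 29 were tested (31 listed), of which 5 rose and 8 fell, with a median difference of −0.15 (−0.17 without P2 array 2 to −0.02 without P2 array 1). Without P2 array 1, 5 rose and 6 fell. Of the secreted class 3 ligands, Sema3a read 8.97, 8.82 and 8.87 at E18.5 against 7.06, 8.16 and 7.86 at P2, a 2.29-fold fall (adjusted p = 0.00301), and Sema3c read 11.50, 11.31 and 11.73 at E18.5 against 10.01, 10.35 and 10.42 at P2, a 2.38-fold fall (adjusted p = 0.00142). Their co-receptor Nrp1 read 11.49, 11.12 and 11.36 at E18.5 against 9.26, 10.30 and 10.31 at P2, a 2.58-fold fall (adjusted p = 0.00379), with all P2 arrays below all E18.5 arrays. Nrp2, the other neuropilin, read 7.30, 6.64 and 8.09 at E18.5 against 7.37, 7.12 and 7.08 at P2 and did not pass. Among the signalling plexins, Plxna2 read 11.81, 11.60 and 11.67 at E18.5 against 9.99, 10.90 and 10.97 at P2 (2.10-fold lower, adjusted p = 0.00601). The fall of Plxna3 (−0.43) was not called without P2 array 1 (adjusted p = 0.068), and that of Plxna4 (−0.83) was not called without E18.5 array 1 or P2 array 1 (adjusted p = 0.0899 to 0.116). The membrane-bound ligands Sema4d and Sema4f fell by 2.16-fold and 1.83-fold. In the other direction, the transmembrane semaphorin Sema6a read 7.85, 7.94 and 7.26 at E18.5 against 9.30, 8.61 and 9.26 at P2, a 2.59-fold rise (adjusted p = 0.000137), Sema6d read 10.20, 10.04 and 10.31 at E18.5 against 11.51, 11.35 and 11.38 at P2 (2.35-fold, adjusted p = 0.000338), and Sema5b read 7.68, 7.85 and 8.36 at E18.5 against 9.61, 8.85 and 9.20 at P2 (2.39-fold, adjusted p = 0.0011). Thus the class 3 ligands that passed fell, and the class 5 and class 6 ligands that passed rose. Plxnc1, the receptor of Sema7a, rose 1.58-fold, a call that ended when its probe sets were averaged (adjusted p = 0.0803). Sema4b rose 1.39-fold, a call that ended in a fit of only the arrays compared (adjusted p = 0.0591).

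Of 20 tested Eph receptors and ephrins (22 listed), contact-dependent guidance molecules, 3 rose and 5 fell, with a median of −0.18 (−0.33 without P2 array 2 to −0.03 without P2 array 1), and 3 fell without P2 array 1. Epha3 read 11.13, 11.08 and 10.93 at E18.5 against 8.54, 9.25 and 9.21 at P2, a 4.13-fold fall (adjusted p = 2.13e-05), and the ligand Efnb2 read 11.91, 11.84 and 11.59 at E18.5 against 9.99, 10.71 and 10.95 at P2, a 2.35-fold fall (adjusted p = 0.000664). The ligand Efna1 rose from 5.84 to 6.93 (adjusted p = 0.00104), and the receptor Epha2 rose 1.45-fold. Epha4, which binds ephrins of both classes, read 10.57, 10.28 and 10.49 at E18.5 against 9.62, 10.11 and 10.19 at P2, lower in every P2 array but not past the threshold (adjusted p = 0.0867).

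Slits, netrins, neuregulins, chemokines and their receptors gave 3 rises and 7 falls among 25 tested (28 listed), with a median of −0.13 (−0.23 without P2 array 2 to −0.05 without P2 array 1), and 4 falls without P2 array 1. Unc5d, a netrin receptor gene of migrating cortical neurons, read 10.08, 9.94 and 10.36 at E18.5 against 7.74, 8.72 and 8.76 at P2, a 3.29-fold fall (adjusted p = 0.00129). Ackr3, the atypical chemokine receptor that keeps Cxcl12 responses of migrating interneurons in balance, read 9.48, 9.49 and 9.63 at E18.5 against 8.24, 8.22 and 8.48 at P2, a 2.33-fold fall (adjusted p = 0.00154). Its partner receptor Cxcr4 read 7.80, 7.31 and 7.49 at E18.5 against 6.63, 6.89 and 7.13 at P2, lower in every P2 array but not past the threshold (adjusted p = 0.0546). The ligand Cxcl12 fell 1.84-fold on the brightest of its probe sets, while both others had the opposite sign, and the call ended when its probe sets were averaged (adjusted p = 0.547). Dcc, a netrin receptor gene, fell 2.10-fold, with 1 of its other 2 probe sets in the same direction. Robo1, a slit receptor gene, read 11.04, 10.84 and 10.65 at E18.5 against 8.83, 9.77 and 9.87 at P2, a fall that was not called without P2 array 1 (adjusted p = 0.0526). Erbb2, a receptor subunit for neuregulins, rose from 5.56 to 6.12, and Nrg1 itself gave −0.04 (adjusted p = 0.868).

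Of 32 tested genes of the migration machinery and cytoskeleton, 1 rose and 6 fell, with a median of −0.12 (−0.18 without E18.5 array 3 to −0.05 without P2 array 1). The share called was 21.9%, beside 28.5% of all genes. The 1 rise, of Dclk1 (0.45), is one for which 3 of 7 other probe sets had the opposite sign, and its call ended in several alternatives, among them without P2 array 1 (adjusted p = 0.13) and when its probe sets were averaged (adjusted p = 0.298). Dcx (doublecortin), the microtubule protein of migrating neurons, read 13.01, 13.00 and 12.94 at E18.5 against 12.29, 12.70 and 12.46 at P2, a 1.41-fold fall (adjusted p = 0.00399). Tubb3, the neuronal tubulin, read 12.12, 12.02 and 11.98 at E18.5 against 11.35, 11.51 and 11.19 at P2 (1.61-fold lower, adjusted p = 0.00455). Cdkn1c, a cell cycle inhibitor with a part in migration, read 10.81, 10.88 and 10.86 at E18.5 against 9.55, 9.91 and 9.72 at P2 (2.18-fold lower, adjusted p = 0.00213), and Lrp8, a reelin receptor, read 10.28, 10.14 and 10.54 at E18.5 against 8.98, 9.72 and 9.57 at P2 (1.86-fold lower, adjusted p = 0.00115, with 1 of its other 2 probe sets in the same direction). All 4 genes were lower in each P2 array than in any E18.5 array. Tuba1a, Tubb2b, Stmn1 and Actb, abundant cytoskeletal genes, gave differences of 0.03, −0.11, −0.12 and 0.08, none of which passed.

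Cadherins and protocadherins, adhesion molecules that sort cells and synapses, gave 4 rises and 4 falls among 23 tested (27 listed), with a median of 0.06 (−0.21 without E18.5 array 3 to 0.18 without E18.5 array 1, and 0.16 without P2 array 1), and 2 falls without P2 array 1. The share called was 34.8%, beside 28.5% of all genes. Pcdh11x went from a mean of 8.37 to 9.91 with no overlap, a 2.90-fold rise (adjusted p = 0.000117), and Pcdh10 read 9.20, 9.13 and 9.13 at E18.5 against 10.31, 10.24 and 10.37 at P2, a 2.22-fold rise (adjusted p = 0.000338). Pcdh15 rose 1.69-fold. Cdh7 read 7.20, 7.05 and 7.28 at E18.5 against 5.91, 6.02 and 6.02 at P2, a 2.29-fold fall (adjusted p = 1.31e-05), and Cdh4 fell 1.54-fold. The call of Celsr3, a cadherin of axon guidance (−0.70), ended without P2 array 1 or in a fit of only the arrays compared (adjusted p = 0.0619 to 0.0722).

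Receptors and channels followed. Of 10 tested GABA-A receptor subunits (14 listed), 1 rose and 1 fell, with a median of 0.25 (0.06 without E18.5 array 3 to 0.43 without P2 array 1). Gabrg1, a subunit gene expressed in glia as well as neurons, read 7.59, 7.61 and 7.74 at E18.5 against 10.56, 10.06 and 10.07 at P2, a 5.99-fold rise (adjusted p = 9.16e-05). Gabra2, an alpha subunit gene of embryonic neurons, read 9.30, 9.10 and 8.68 at E18.5 against 8.13, 8.19 and 8.50 at P2 (−0.75), and this fall was not called without E18.5 array 1, E18.5 array 2, P2 array 1 or P2 array 2 (adjusted p = 0.0685 to 0.108). Of 12 tested ionotropic glutamate receptor subunits (17 listed), 3 rose and 2 fell, with a median of −0.06 (−0.17 without E18.5 array 3 to 0.12 without P2 array 1). Only 1 rose without E18.5 array 3, and 0 fell without P2 array 1, E18.5 array 1 or E18.5 array 2. Grin3a, an NMDA receptor subunit that limits calcium entry, read 7.84, 7.86 and 7.49 at E18.5 against 9.15, 9.05 and 8.94 at P2, a 2.49-fold rise with no overlap (adjusted p = 2.18e-05). Grin2d, the NMDA subunit typical of interneurons, read 7.30, 7.51 and 7.09 at E18.5 against 8.10, 8.23 and 7.88 at P2 (1.71-fold, adjusted p = 0.0131), and that call ended without E18.5 array 3 (adjusted p = 0.0563). The AMPA receptor genes Gria1 and Gria2 were lower by 1.94-fold and 1.37-fold, and for Gria1 the ages overlapped. The call of Gria1 ended without E18.5 array 1, E18.5 array 2 or P2 array 1 or in a fit of only the arrays compared (adjusted p = 0.0521 to 0.103). The call of Gria2 ended without E18.5 array 1, E18.5 array 2 or P2 array 1 or when its probe sets were averaged (adjusted p = 0.0525 to 0.106).

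Of 25 tested voltage-gated channels (33 listed), 4 rose and 1 fell, with a median of −0.21 (−0.30 without P2 array 3 to −0.06 without P2 array 1), and the 1 fall, of Cacna2d1 (−0.97), was not called without E18.5 array 1, E18.5 array 2 or P2 array 1 or after quantile normalization (adjusted p = 0.0506 to 0.153). Kcna2, a delayed rectifier potassium channel, read 6.77, 6.93 and 7.0 at E18.5 against 8.01, 7.79 and 8.0 at P2, a 2.05-fold rise (adjusted p = 9.16e-05), and Kcnd2, an A-type potassium channel, read 9.40, 9.43 and 9.12 at E18.5 against 10.39, 10.27 and 10.26 at P2, a 1.99-fold rise (adjusted p = 0.00511). The sodium channel genes Scn1a, Scn2a, Scn3a and Scn8a gave −0.01, −0.21, −0.58 and −0.04, and none passed. Of 33 tested synaptic genes (40 listed), 4 rose and 2 fell, with a median of 0.08 (−0.05 without E18.5 array 3 to 0.17 without E18.5 array 2). There were 2 rises without E18.5 array 3, and 1 fall without P2 array 1, E18.5 array 1 or E18.5 array 2. Unc13c (Munc13-3), a vesicle priming factor, read 6.80, 7.24 and 6.28 at E18.5 against 8.45, 8.96 and 8.83 at P2, a 3.93-fold rise (adjusted p = 0.00017), and Shank3, a scaffold of excitatory synapses, rose 1.59-fold (adjusted p = 0.00681). Cbln1, a synaptic organiser, read 8.94, 8.99 and 8.98 at E18.5 against 7.76, 8.36 and 8.23 at P2, a 1.81-fold fall (adjusted p = 0.00136). Gphn (gephyrin) and Nlgn2, which build inhibitory synapses, gave 0.11 and 0.21 and did not pass.

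Serotonin genes other than Htr3a were mostly dim, and 7 of 16 listed were tested. With 28.6% called, beside 28.5% of all genes, 2 rose and 0 fell, and the median was 0.26. Both were the monoamine oxidases that degrade serotonin. Maoa read 9.26, 9.29 and 9.46 at E18.5 against 10.07, 10.11 and 10.06 at P2, a 1.67-fold rise with no overlap (adjusted p = 0.000385). Maob, the form known from glia, read 5.28, 5.11 and 5.06 at E18.5 against 6.35, 6.27 and 5.98 at P2, a 2.07-fold rise from a level below the dimness filter (adjusted p = 0.00186). The receptor genes Htr1b, Htr7, Htr1a and Htr5a gave 0.26, 0.43, 0.23 and 0.22, and the serotonin transporter gene Slc6a4 gave 0.07. None of these 5 passed.

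Immediate early and stress genes, which neuronal activity, growth signals and tissue handling induce within minutes, rose in part. Of 31 tested, 13 rose and 1 fell, with a median difference of 0.59 (0.40 without P2 array 1 to 0.92 without P2 array 2) beside 0.00 over all genes. Without P2 array 1, 5 rose, without E18.5 array 1, 5, and without E18.5 array 3, 8. Zfp36 (tristetraprolin), a protein that destabilises inflammatory mRNAs, read 8.38, 8.34 and 8.17 at E18.5 against 10.61, 9.93 and 10.13 at P2, a 3.80-fold rise (difference 1.93, SE 0.27, adjusted p = 0.000169). Socs3, the feedback inhibitor of cytokine signalling, read 9.57, 9.85 and 9.96 at E18.5 against 12.10, 11.28 and 11.74 at P2, a 3.77-fold rise (adjusted p = 2.25e-05). Ccn1, a matricellular protein, read 8.56, 8.27 and 8.24 at E18.5 against 10.13, 9.74 and 10.06 at P2 (3.07-fold, adjusted p = 0.00298), and Junb, an AP-1 subunit, read 8.08, 8.37 and 8.22 at E18.5 against 10.05, 9.30 and 9.66 at P2 (2.73-fold, adjusted p = 0.005). The small heat shock protein gene Hspb1 rose 1.91-fold (adjusted p = 0.00209). These 5 were all called in each alternative and had no overlap between the ages. Among genes known for neuronal activity, Fos read 13.31, 13.42 and 13.04 at E18.5 against 13.83, 13.50 and 13.75 at P2, Egr1 read 12.73, 12.69 and 12.89 at E18.5 against 13.20, 12.94 and 13.20 at P2 and Npas4 read 8.84, 9.17 and 8.04 at E18.5 against 10.05, 9.30 and 9.68 at P2. All 3 were higher in every P2 array than in any E18.5 array, but none passed (adjusted p = 0.0879, 0.162 and 0.135). The ages did not overlap, in either direction, for 47.5% of all genes, so this is not read as a result. Arc (0.98) passed but was not called without E18.5 array 1 or P2 array 1 (adjusted p = 0.0528 to 0.0539), and Egr2 (1.17) was not called without E18.5 array 1, P2 array 1 or P2 array 3 (adjusted p = 0.0595 to 0.0856). Nr4a1 (0.98) was not called without E18.5 array 1, E18.5 array 3, P2 array 1, P2 array 2 or P2 array 3 or with a replicate block (adjusted p = 0.0548 to 0.149).

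The promoter of Zfp36 is shown because it was the only one of 28 matched promoters of this list with a CArG box, the site of serum response factor, which carries growth signals to immediate early genes. The sequence is that of RefSeq on GRCm38.p6, from 250 bases before the annotated start to 30 bases after it, on the minus strand at chr7:28379199-28379478, with the match in capitals.
Zfp36: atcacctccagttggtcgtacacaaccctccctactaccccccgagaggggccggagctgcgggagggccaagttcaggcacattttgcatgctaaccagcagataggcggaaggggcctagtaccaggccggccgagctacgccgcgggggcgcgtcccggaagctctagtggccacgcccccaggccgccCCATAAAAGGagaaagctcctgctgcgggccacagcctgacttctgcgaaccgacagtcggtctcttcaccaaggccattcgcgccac
The motif was searched as CCWWWWWWGG, where W is A or T, on both strands, and 1.5% of 27025 promoters of the same length held it. Looser spellings of the site were not searched. The cyclic AMP response element, spelled TGACGTCA, was found in 2 of the 28 (Dusp1 and Btg2) and in 1.83% of all promoters. Neither Dusp1 nor Btg2 passed, at 0.16 and 0.17. A match describes letters in this window only.

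Genes that respond to glucocorticoids and thyroid hormone, or that carry these hormones' signals, were mostly higher at P2. Of 24 tested (27 listed), 15 rose and 1 fell, with a median difference of 0.62, and without P2 array 1 there were 11 and 1. The receptor itself was among them: Nr3c1, the glucocorticoid receptor gene, read 7.66, 7.68 and 7.63 at E18.5 against 9.16, 9.0 and 9.31 at P2, a 2.83-fold rise (adjusted p = 9.29e-05). Among known targets of these receptors, Pdk4, a kinase that turns down glucose oxidation, read 4.59, 4.73 and 5.12 at E18.5 against 8.28, 7.39 and 7.60 at P2, a 7.69-fold rise from below the dimness filter (adjusted p = 1.79e-06). Klf15 read 7.91, 7.95 and 8.29 at E18.5 against 9.32, 9.36 and 9.85 at P2 (2.75-fold, adjusted p = 0.000107), and Klf9, a target of both hormones, read 11.08, 11.59 and 11.14 at E18.5 against 12.44, 12.48 and 12.30 at P2 (2.20-fold, adjusted p = 0.00301). In the thyroid arm, Dio2, the enzyme that activates the hormone, rose 3.81-fold (adjusted p = 0.000412), and Slco1c1, a transporter that takes it up, rose 4.40-fold (adjusted p = 0.000195). Nrgn (neurogranin), a calmodulin-binding postsynaptic protein, read 7.75, 7.14 and 7.09 at E18.5 against 8.87, 10.08 and 9.52 at P2, a 4.48-fold rise (adjusted p = 0.00244). Against the rest, Fkbp5, a chaperone gene that glucocorticoids induce, read 9.05, 9.01 and 9.12 at E18.5 against 8.45, 8.39 and 8.26 at P2, a 1.62-fold fall (adjusted p = 0.000533). Tsc22d3 (GILZ), another classical target, gave 0.03 and did not pass (adjusted p = 0.911). Dio2 and Slco1c1 are also genes of astrocytes, whose markers rose in the same arrays. The part of astrocytes in any rise of this list, which also holds the metallothioneins described next, was not tested.

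The metallothioneins Mt1 and Mt2, small proteins that bind zinc and copper, lie next to each other on chromosome 8 and moved together. Mt1 read 7.86, 8.53 and 8.72 at E18.5 against 11.14, 9.98 and 10.44 at P2, a 4.44-fold rise (difference 2.15, SE 0.42, adjusted p = 0.00201). Mt2 read 8.69, 9.41 and 9.59 at E18.5 against 11.77, 10.58 and 11.09 at P2, a 3.78-fold rise (difference 1.92, SE 0.41, adjusted p = 0.00331). In both genes P2 array 1 was highest and E18.5 array 1 lowest, and the ages did not overlap. The mean of the astrocyte list was also highest in P2 array 1 (10.87) and lowest in E18.5 array 1 (8.14), and the part of astrocytes here was not tested. Their promoters are shown because they carry repeats of TGCNCNC, where N is any base. It is a loose spelling of the core of the metal response element, through which metals induce these genes. The sequences are RefSeq's on GRCm38.p6, plus strand, from 250 bases before to 30 after the annotated start, Mt1 at chr8:94178839-94179118 and Mt2 at chr8:94172368-94172647, with each match of TGCNCNC on either strand in capitals.
Mt1: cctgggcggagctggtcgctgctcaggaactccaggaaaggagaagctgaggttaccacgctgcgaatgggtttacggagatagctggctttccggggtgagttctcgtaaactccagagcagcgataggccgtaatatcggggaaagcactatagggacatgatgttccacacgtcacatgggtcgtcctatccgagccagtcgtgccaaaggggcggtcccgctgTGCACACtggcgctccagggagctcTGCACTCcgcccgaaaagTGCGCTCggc
Mt2: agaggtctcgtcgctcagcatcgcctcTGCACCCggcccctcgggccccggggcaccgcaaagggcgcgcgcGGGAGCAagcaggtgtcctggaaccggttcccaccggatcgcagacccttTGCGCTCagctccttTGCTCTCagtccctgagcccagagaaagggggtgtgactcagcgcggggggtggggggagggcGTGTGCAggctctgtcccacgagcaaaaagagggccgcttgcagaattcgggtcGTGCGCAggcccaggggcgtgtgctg
Mt1 held 3 matches and Mt2 held 6. Counted from the annotated start, those of Mt1 began at −23, 2 and 20, and the last of Mt2 at 4, so some lie after that start. Only the first start listed for each gene was used, and a match may lie before another start of the gene. At least 1 match was found in 47.9% of 27025 promoters of this length and 3 or more in 6.05%, so this spelling alone is common. Of 19 matched promoters of the hormone list, 3 had 3 or more (Mt1, Mt2 and Dbp). The motifs were chosen after the expression values were seen.

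Progenitor genes of the Notch pathway, which keeps radial glia and astrocyte precursors undifferentiated, moved in both directions. Of 23 tested (24 listed), 7 rose and 3 fell, with a median of 0.29 (0.19 without E18.5 array 2 to 0.45 without E18.5 array 3), and 4 rose without P2 array 1 or E18.5 array 2. The receptor Notch3 read 7.54, 7.59 and 7.56 at E18.5 against 10.42, 9.50 and 9.99 at P2, a 5.30-fold rise (adjusted p = 0.000342). Its effector genes rose as well, with Hey2 at 4.64, 4.85 and 4.79 at E18.5 against 7.01, 5.89 and 6.23 at P2 (3.07-fold from below the dimness filter, adjusted p = 0.00234) and Heyl at a rise of 1.44-fold. Hes1 rose 2.81-fold and was not called without E18.5 array 2 or P2 array 1 (adjusted p = 0.0519 to 0.0689). The ligand Dll1 of newborn neurons read 9.17, 9.0 and 9.57 at E18.5 against 7.58, 8.49 and 8.69 at P2, a 1.99-fold fall (adjusted p = 0.00754), and Hes6, which opposes Hes1 in differentiating neurons, read 9.95, 10.04 and 10.33 at E18.5 against 9.12, 9.24 and 9.26 at P2, a 1.87-fold fall (adjusted p = 0.000232). Radial glia genes Nes, Vim, Sox2 and Hopx gave 0.29, 0.19, 0.24 and 0.06, and none passed.

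Among genes that time neural development, 1 rose and 4 fell of 17 tested (22 listed), with a median of −0.25, and 2 fell without P2 array 1 or E18.5 array 1. The share called was 29.4%, beside 28.5% of all genes. The 1 rise, of the transcription factor gene Arid3a (0.33), was not called without E18.5 array 3 or P2 array 1 or in a fit of only the arrays compared or after quantile normalization (adjusted p = 0.0513 to 0.231). Sox11, an SRY-box factor of immature neurons, read 13.79, 13.68 and 13.86 at E18.5 against 12.85, 13.01 and 13.20 at P2, a 1.69-fold fall (adjusted p = 0.000372), and Dnmt1, the maintenance DNA methyltransferase, read 10.43, 10.70 and 10.91 at E18.5 against 9.85, 10.20 and 10.10 at P2, a 1.55-fold fall (adjusted p = 0.00823). Sox4, the partner of Sox11, read 13.35, 13.13 and 13.11 at E18.5 against 11.64, 12.66 and 12.83 at P2, and its call ended without E18.5 array 1 or P2 array 1 or in a fit of only the arrays compared (adjusted p = 0.0711 to 0.0986). Of 32 tested cell cycle genes (34 listed), 0 rose and 2 fell, with a median of −0.25 (−0.41 without P2 array 1 to −0.05 without E18.5 array 3). They were Mcm7, a helicase subunit of DNA replication (11.92, 11.77 and 12.21 at E18.5 against 11.48, 11.10 and 11.35 at P2, adjusted p = 0.00491), and Cdk4, a G1 kinase (11.39, 11.28 and 11.40 at E18.5 against 10.89, 10.60 and 10.74 at P2, adjusted p = 0.00589). Mki67 and Top2a, markers of dividing cells, read 10.73, 10.59 and 11.57 at E18.5 against 10.83, 10.31 and 10.64 at P2 and 9.92, 9.84 and 10.79 at E18.5 against 10.36, 9.62 and 9.95 at P2, with overlap between the ages.

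Cholesterol synthesis enzymes were higher in part. Of 19 tested (22 listed), 8 rose and 0 fell, with a median of 0.38 (6 and 0 without P2 array 1). Of these 8, Fdps (0.53) was not called without E18.5 array 2, E18.5 array 3, P2 array 1 or P2 array 3 or in a fit of only the arrays compared or with a replicate block (adjusted p = 0.0504 to 0.182), Nsdhl (0.67) was not called without E18.5 array 2, E18.5 array 3 or P2 array 1 (adjusted p = 0.0599 to 0.141), and Msmo1 (0.94) was not called when its probe sets were averaged (adjusted p = 0.317). Tm7sf2, a sterol reductase, read 8.74, 8.85 and 8.82 at E18.5 against 10.47, 9.90 and 9.86 at P2, a 2.42-fold rise (adjusted p = 0.000161), Sc5d, a sterol desaturase, rose 1.72-fold, Hsd17b7, a sterol ketoreductase, 1.5-fold and Dhcr7, the enzyme of the last step, 2.02-fold. Hmgcs1, Sqle, Fdft1 and Cyp51, early and middle enzymes, gave 0.09, 0.20, 0.04 and 0.03, and none passed. Srebf2 and Insig1, which control the pathway, gave 0.06 and 0.10. A strict spelling of the sterol regulatory element was found in 0 of 16 matched promoters of this list and in 0.226% of all. A spelling this rare is unlikely to occur in so few promoters. The 0 therefore cannot show whether these promoters lack the element. Looser spellings of it were not searched.

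Genes of antigen presentation and the interferon response were partly higher at P2. Of 20 tested (28 listed), 10 rose and 0 fell, with a median of 0.36. Without E18.5 array 1 there were 5, and without E18.5 array 3 there were 6. Ifitm3, an interferon-induced membrane protein, read 6.09, 6.43 and 6.19 at E18.5 against 8.34, 7.71 and 7.66 at P2, a 3.17-fold rise (adjusted p = 0.00516), and Irf1, a transcription factor of the response, read 7.38, 7.77 and 7.69 at E18.5 against 9.24, 8.29 and 8.38 at P2, a 2.03-fold rise (adjusted p = 0.00635). Ifi27 rose 1.67-fold (adjusted p = 0.00357). B2m, the light chain of MHC class I, read 8.80, 8.88 and 8.78 at E18.5 against 10.01, 10.11 and 9.81 at P2 (adjusted p = 0.0339), a call that ended when any 1 of the 6 arrays was left out (adjusted p = 0.0511 to 0.0865). H2-Aa, an MHC class II gene, read 5.38, 5.34 and 5.40 at E18.5 against 6.09, 6.13 and 6.35 at P2, a 1.76-fold rise within the dim end of the array (adjusted p = 5.05e-05). The class I genes H2-K1 and H2-D1 gave 0.35 and −0.44 and did not pass.

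Astrocyte genes had the highest median difference of the 33 lists. Of 18 tested astrocyte genes (20 listed), 16 rose and 0 fell, with a median difference of 2.15, and 16 rose without P2 array 1 too. The list's mean was 8.14, 8.24 and 8.37 at E18.5 against 10.87, 10.22 and 10.43 at P2, far apart and highest in P2 array 1. Slc1a2, the main glutamate transporter of astrocytes, read 8.75, 9.01 and 9.17 at E18.5 against 12.44, 11.77 and 11.83 at P2, an 8.21-fold rise (adjusted p = 2.61e-06). Slc7a10, an amino acid transporter, read 6.22, 6.27 and 6.09 at E18.5 against 9.46, 8.54 and 8.78 at P2 (6.65-fold, adjusted p = 1.79e-06), and Aldh1l1, a folate enzyme used as a pan-astrocyte marker, read 8.48, 8.53 and 8.48 at E18.5 against 11.13, 10.61 and 10.87 at P2 (5.18-fold, adjusted p = 0.000153). Gfap, the intermediate filament of reactive and early astrocytes, rose 3.26-fold. Sox9 and S100b were the members that did not pass, at 0.55 and 0.43. These markers rose in cells sorted on a GABAergic reporter, and their part in rises of genes that glia also express was not tested.

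Of 17 tested oligodendrocyte lineage genes (22 listed), 11 rose and 0 fell, with a median of 1.28 (9 and 0 without P2 array 1). They included genes of precursors and of cells that start to myelinate. Gpr17, a receptor of committed precursors, read 8.18, 8.09 and 8.50 at E18.5 against 10.94, 10.51 and 10.31 at P2, a 5.03-fold rise (adjusted p = 1.45e-05). Lhfpl3 and Nkx2-2 rose 3.82-fold and 4.41-fold. Pdgfra, the growth factor receptor of precursors, read 11.53, 11.47 and 11.72 at E18.5 against 13.24, 12.70 and 12.83 at P2 (2.55-fold, adjusted p = 0.00275), and Sox10, the lineage factor, rose 2.58-fold. Olig1 and Olig2 were already high at E18.5 and did not pass, at 0.63 and 0.42. Of genes of myelinating cells, Myrf, Mag, Cnp and Ugt8a rose, at 0.71, 0.41, 1.28 and 1.51, while Mbp and Opalin gave −0.04 and −0.03 and did not pass. The call of Mag ended without E18.5 array 1, E18.5 array 2, E18.5 array 3 or P2 array 1 or after quantile normalization (adjusted p = 0.0505 to 0.166), and that of Cnp without P2 array 1 (adjusted p = 0.0528).

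Markers of microglia, blood vessels and meninges were checked next. Of 20 tested microglia and macrophage genes (22 listed), 0 rose and 0 fell in limma, with a median of 0.27 (0.00 without P2 array 2 to 0.48 without E18.5 array 2), and by array the list's mean was 6.59, 7.11 and 6.55 at E18.5 against 6.93, 7.39 and 6.78 at P2. Csf1r, the receptor that microglia need, read 9.01, 9.80 and 8.90 at E18.5 against 9.44, 10.22 and 9.03 at P2, and C1qa, a complement gene, read 6.73, 7.23 and 6.65 at E18.5 against 7.29, 7.71 and 6.61 at P2, both with overlap. In the P2 control arrays the same list stood at 9.83, 8.28 and 7.06, and 5 of its genes rose in control cells. The difference between the genotypes was called for 0 of the 20 in limma (smallest adjusted p over all genes 0.643). Of 19 tested endothelial and mural genes (22 listed), 3 rose and 0 fell, with a median of 0.71 (0.35 without P2 array 2 to 1.13 without P2 array 1), and 6 rose without P2 array 1, 1 without E18.5 array 1 and 2 without any one of the other 4 arrays. The 3 were Cspg4, a proteoglycan gene of pericytes that is also on the oligodendrocyte list (1.46, called in every alternative), Acta2, smooth muscle actin (0.71), and the glucose transporter gene Slc2a1 (0.81). Acta2 was not called without E18.5 array 1 or P2 array 1 or when its probe sets were averaged or after quantile normalization (adjusted p = 0.0531 to 0.0961), and Slc2a1 was not called without E18.5 control array 1, E18.5 control array 2, E18.5 array 1, E18.5 array 2, E18.5 array 3, P2 control array 2, P2 array 2 or P2 array 3 or without the dimness filter or with a replicate block (adjusted p = 0.0507 to 0.183). P2 array 1 was the lowest of its group for this list (7.59, against 9.03 and 8.54), and at E18.5 the list stood at 7.80, 7.87 and 7.33. Cldn5, the tight junction protein of brain endothelium, read 9.46, 9.36 and 8.51 at E18.5 against 8.36, 10.70 and 10.34 at P2 and did not pass. Of 9 tested meningeal genes (13 listed), 2 rose and 1 fell, with a median of 0.55, and 4 rose without P2 array 1. Col1a2, a collagen chain, read 6.82, 6.16 and 6.42 at E18.5 against 7.41, 7.67 and 7.74 at P2, a 2.20-fold rise (adjusted p = 0.00383), and Igfbp2, an IGF-binding protein, rose 2.23-fold. Of 4 tested erythroid genes (12 listed) none passed, and the globin genes Hba-a1 and Hbb-y stayed between 4.95 and 5.89.

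Survival and housekeeping genes came last. Of 21 tested Bcl2 family and caspase genes (24 listed), 1 rose and 3 fell, with a median of −0.01 (−0.08 without E18.5 array 1 to 0.01 without P2 array 3, and −0.02 without P2 array 1). The 1 rise, of Hrk (0.53), was not called without E18.5 array 1 or P2 array 1 (adjusted p = 0.106 to 0.109). Casp2, an initiator caspase, read 10.56, 10.41 and 10.57 at E18.5 against 9.80, 9.84 and 9.91 at P2, a 1.58-fold fall (adjusted p = 0.000288), and Apaf1, the core of the apoptosome, read 9.28, 9.19 and 9.23 at E18.5 against 8.32, 8.70 and 8.75 at P2, a 1.56-fold fall (adjusted p = 0.00235), a call that ended when its probe sets were averaged (adjusted p = 0.138). Of 30 tested oxidative phosphorylation subunits (31 listed), 2 rose and 0 fell, with a median of 0.13. The rises numbered 0 without P2 array 1, P2 array 2 or E18.5 array 1, 1 without E18.5 array 2 and 4 without P2 array 3. Of 23 tested ribosomal protein genes (34 listed), 0 rose and 0 fell in limma, with a median of −0.03 (−0.10 without E18.5 array 1 to 0.05 without E18.5 array 3, and −0.08 without P2 array 1).

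**Figure D4:**
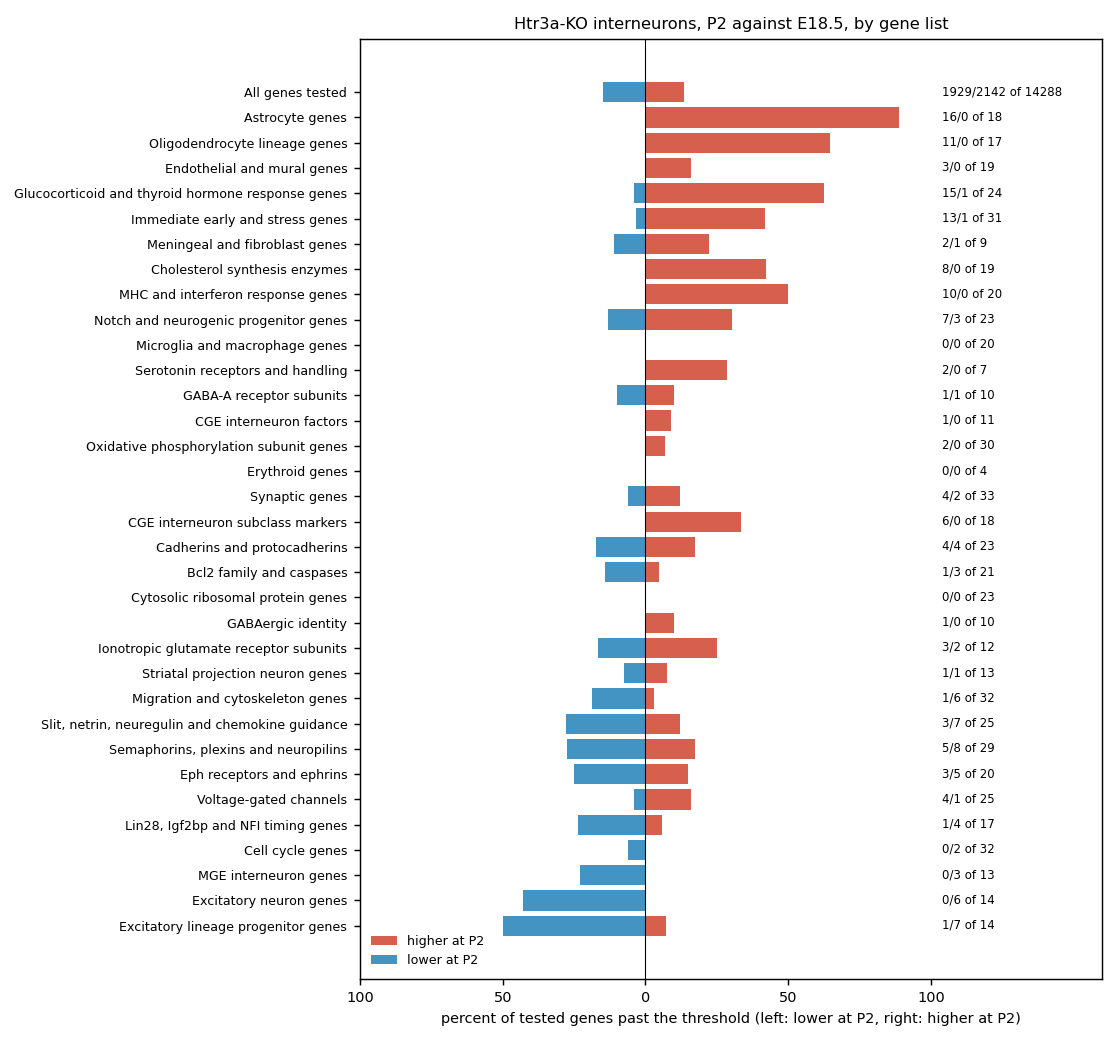
Share of tested genes that passed in each of 33 lists and over all genes tested (horizontal axis, percent, lower at P2 to the left in blue and higher to the right in red), with the counts higher/lower of the number tested on the right. Lists are ordered by their median difference. Astrocyte genes reached 16 of 18 higher and excitatory progenitor genes 7 of 14 lower, beside 13.5% higher and 15.0% lower over all genes.

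The step in Htr3a-KO cells was set beside the same step in control cells, which uses no array of the first. In control cells 2818 genes passed, 19.7% of those tested, with 1424 higher (9.97%) and 1394 lower (9.76%). The genes called in both genotypes in the same direction numbered 2009, which is 49.3% of the Htr3a-KO calls and 71.3% of the control calls, and 0 were called in opposite directions. Of the Htr3a-KO calls, 94.6% had the same sign in control cells, against 75.4% of all genes. Across genes, which are not independent replicates, the differences of the genotypes correlated at a Pearson r of 0.834. Aqp4 rose by 6.08 in control cells, Crh by 3.69 and Zfp36 by 2.63, and Neurog2 fell there too (difference −2.92).

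**Figure D5:**
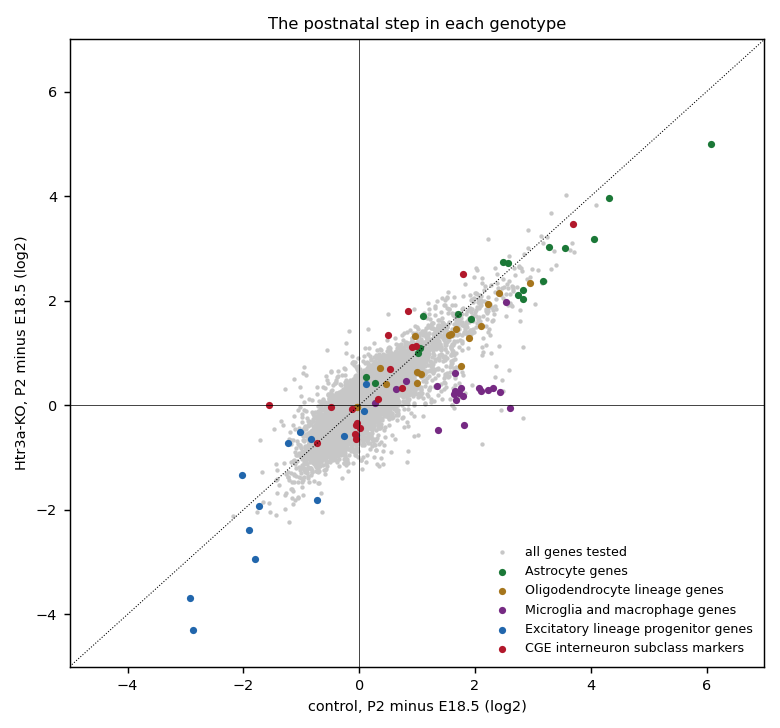
Difference between P2 and E18.5 in Htr3a-KO cells (vertical axis, log2) against that in control cells (horizontal axis, log2), 1 point per gene tested, with the line of equal change dotted and 5 lists coloured. Most genes lie along the line (Pearson r across genes 0.834), and microglia genes lie mostly to the right of it. That list varied between the P2 control arrays (means 9.83, 8.28 and 7.06). In control cells 5 of its 20 genes passed, and the genotype difference was called for 0.

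The test of the difference itself, the Htr3a-KO step minus the control step, called 0 of 14288 genes in limma (smallest adjusted p = 0.643), while 1033 genes (7.23%) had an unadjusted p under 0.05. The 2062 genes called in Htr3a-KO cells and not in control cells are therefore not shown to differ between the genotypes. Of them, 490 had an unadjusted p under 0.05 in the test of the difference. Because they were picked by the same values that this test uses, that count cannot show a difference between the genotypes. Among the smallest p of that test, Htr3a had a difference of 1.56 (SE 0.37, unadjusted p = 0.000623), with −1.55 in control cells (adjusted p = 0.000835) and 0.01 in Htr3a-KO cells. Usp2, a deubiquitinase gene under circadian control, read 7.81, 8.45 and 7.73 at E18.5 against 9.73, 9.37 and 9.27 at P2 in Htr3a-KO cells and rose 2.75-fold there (adjusted p = 6.05e-05), against 0.16 in control cells, a difference of 1.30 (SE 0.25, unadjusted p = 0.000107). H2-Aa had a difference of 0.72 (unadjusted p = 9.97e-05), Prtg, a gene of the immunoglobulin superfamily, 0.57 and the kinase gene Zap70 0.57. In the other direction stood Zfp946, a zinc finger gene (−0.72, unadjusted p = 0.000198), the exchanger gene Slc24a2 (−1.42), the zinc finger genes Zbtb20 (−1.25) and Zfp937 (−0.85), and Rlf (−0.91). Slc24a2 rose by 1.68 in control cells and gave 0.26 in Htr3a-KO cells. None of these 10 passed.

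The E14.5 arrays give the earlier levels of these genes, with no test. In Htr3a-KO cells at E14.5, Eomes read 11.36, 11.70 and 11.88 and Neurog2 10.36, 10.42 and 11.11, above their levels at E18.5. Aqp4 read 3.87, 4.03 and 3.94 at E14.5 and Gpr17 5.78, 6.09 and 5.66, below their levels at E18.5. Vip read 4.83, 5.35 and 4.68, overlapping its E18.5 levels, and Crh read 6.41, 6.11 and 6.62, above each E18.5 array. Sox11 read 13.95, 14.01 and 13.82 and Sema3a 8.87, 9.13 and 9.05, both overlapping E18.5.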

How the data were processed

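RNA of sorted cells was measured on 18 Affymetrix Mouse Genome 430 2.0 arrays. The deposited values are log2 intensities, which the authors made by RMA in Partek Genomic Suite 6.6, per the submitters' processing notes. The platform annotation named 1 gene for 34945 of 45101 probe sets, several for 932 and none for 9160, and 64 were controls. Probe sets in the lowest 30% of mean level (under 5.255) were left out, and the brightest of each gene was kept (14288 genes). limma 3.58.1 in R 4.3.3 fitted 6 group means over all 18 arrays (12 residual degrees of freedom), with Benjamini-Hochberg adjustment over all genes and a threshold of 0.05. The p-values measure the spread between arrays, each a pool of brains, and the number of arrays limits their precision. The members and lists were chosen with earlier results of these data known. Named genes were Htr3a, Gad1 and Gad2, the 10 largest rises and falls with no overlap between arrays, up to 3 members of each list in each direction by smallest p, the 5 smallest p of the genotype difference in each direction, and other list members as examples. Lists were described by counts and medians, without a set test. Promoters came from RefSeq (GRCm38.p6), with only the first start listed for each gene. The procedure was tested on simulated data. Replicate numbers did not pair the arrays: deviations of same-numbered arrays correlated at −0.427, 0.301 and −0.196. No scan date or batch is given in the sources used here. Alternatives were the filter, the probe set rule, normalization, variance prior, array weights, a replicate block, the arrays in the fit, the threshold and leaving out each array.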

Additional observations from a re-analysis of the deposited data

How the results depend on the processing

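The 4071 calls of the Htr3a-KO step (1929 higher, 2142 lower) moved by over 1.5 times in 4 alternatives. Testing all probe sets without a filter gave 7136 calls (3519 higher and 3617 lower), by construction from more features, and requiring a change of at least 1.5-fold gave 2137 (1117 and 1020). Leaving out E18.5 array 1 gave 2695 (1279 and 1416), and leaving out P2 array 1 gave 2518 (1251 and 1267). Over the 6 fits that left out 1 array the calls ranged from 2518 to 3718, those higher from 1251 to 1801 and those lower from 1267 to 1917, with fewer samples in each. With the replicate number as a replicate block there were 3784 calls (1804 and 1980) and 0 for the genotype difference. The same-numbered arrays are not known to share anything but the number. The other counts ran from 3493 with the dimmest 50% left out to 5796 with array weights. The genotype difference stayed at 0 calls under each alternative run, including a false discovery rate of 0.10. Calls of single genes were followed only through the repeated fits. The 1.5-fold minimum, the looser false discovery rate and the test of all probe sets were not applied to them. Of 128 named genes that passed, 95 passed in every such fit and 33 did not, and 0 reversed. For named genes, fits without a control array were not counted. For list members, fits without a control array were counted too. Of 195 calls among 633 list members tested, 120 passed in every fit so counted and 75 did not. Of these, 59 were lost without P2 array 1 and 46 without E18.5 array 1. The cause was not tested. The array floor limits folds of genes whose level at 1 age lies under 5.255.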
